A study of Saccharomyces cerevisiae with 6 samples.

Results

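The nuclear-encoded respiratory chain and ATP synthase of *Saccharomyces cerevisiae* were examined as a group of 39 genes, named by symbol: 3 NADH dehydrogenases, 4 genes of complex II, 9 of complex III, 2 of cytochrome c, 9 of complex IV and 12 of ATP synthase. Of these, 38 were found by symbol among the 5925 genes of the files. *QCR8* was not analysed here. The study compared poly(A) RNA from BSGX001 (thi2Δ), in which the gene of the thiamine pathway activator Thi2p was to be deleted, with RNA from BSGX001, in 3 libraries per strain. Both strains descend from the laboratory strain CEN.PK 113-5D, and both carry Ru-XI, XK, gre3::PPP and cox4delta in their labelled genotype and underwent adaptive evolution in xylose, so that a deletion of a complex IV gene is listed for the control strain as well. Cells were taken at 20 h of fermentation at 30 °C in YNB medium with glucose and xylose at 20 g/L each, which the labels call the GX stage. The 3 libraries of a strain are numbered in the titles, nothing states that they came from separate cultures, and the p-values then measure only the spread between these libraries.

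The respiratory chain passes electrons from NADH and succinate through ubiquinone, complex III and cytochrome c to oxygen at complex IV, and ATP synthase uses the proton gradient so built to make ATP. Budding yeast has no proton-pumping complex I and instead feeds electrons in through single-subunit NADH dehydrogenases, and several of its subunits exist as a pair of isoforms used under high or low oxygen. Many genes of the chain are kept low while glucose is plentiful and are switched on through the CCAAT-binding HAP complex, whose activating subunit is Hap4p.

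The sequence that the HAP complex recognises stood before most of the members. In the 500 bases before each open reading frame, searched on both strands, CCAAT or, on the other strand, ATTGG was found for 34 of 38 members (89.5%) and for 3695 of 5893 genes with such a stretch (62.7%). The longer sequence TNATTGGT, which reads ACCAATNA on the other strand and always holds a CCAAT match, was found for 17 of 38 members (44.7%), against 511 of 5893 genes (8.67%). The lines that follow show stretches of 30 bases around 1 match each for the 9 members with this longer sequence that were called different between the strains, so that genes that moved in opposite directions can be read side by side. They come from the RefSeq sequence of build R64, run 5′ to 3′ on the strand of the gene, and have the matched bases in capitals. A match is a description of the letters and not a shown binding site.
*ATP4*, 190 bases before the frame, lower in BSGX001 (thi2Δ), chrXVI:408916-408945, reverse strand: atcaatattgaACCAATCAcgacgcttttt
*NDI1*, 228 bases before the frame, lower in BSGX001 (thi2Δ), chrXIII:30017-30046, reverse strand: tattcattcggACCAATCAtatgaaggcat
*COR1*, 351 bases before the frame, lower in BSGX001 (thi2Δ), chrII:135849-135878, reverse strand: acgctttctgcACCAATGAaatgccaataa
*ATP3*, 196 bases before the frame, lower in BSGX001 (thi2Δ), chrII:315368-315397, forward strand: cgtgatggagaACCAATGAgcggcgagtaa
*NDE1*, 103 bases before the frame, lower in BSGX001 (thi2Δ), chrXIII:556560-556589, reverse strand: tattctggtaaACCAATTAaagagagaaaa
*RIP1*, 248 bases before the frame, lower in BSGX001 (thi2Δ), chrV:107001-107030, forward strand: ctccataacggACCAATCAgcgttttgcgc
*COX6*, 217 bases before the frame, lower in BSGX001 (thi2Δ), chrVIII:209477-209506, forward strand: gaaaagggaccTAATTGGTccggtcaaagc
*COX12*, 206 bases before the frame, higher in BSGX001 (thi2Δ), chrXII:225360-225389, reverse strand: tcataacattgACCAATCAattttcagaaa
*ATP14*, 198 bases before the frame, higher in BSGX001 (thi2Δ), chrXII:722553-722582, reverse strand: gccatacacgaACCAATTAtgcatcataaa
The members with TNATTGGT were not all called in the same direction, and *ATP14*, called higher, lies in a segment of chromosome XII that was raised as a whole (below). With the libraries scaled by trimmed means (TMM), 26.1% of all genes were called higher and 25.2% lower in BSGX001 (thi2Δ). Of the 17 members with TNATTGGT, 2 were then higher and 7 lower, with a median log2 fold change of -0.07, against 0.01 over all genes. With library totals 8 were higher and 1 was lower, with a median of 0.15. Of all genes, 51.9% were higher and 10.3% lower with that scaling, with a median of 0.22. Of the 21 members without TNATTGGT, 7 were higher and 4 lower with TMM, with a median of 0.07. With library totals 14 were higher and none lower, with a median of 0.28. The lower count of the 17 was 4 without BSGX001 replicate 3 and 5 without BSGX001 (thi2Δ) replicate 1 or replicate 3. Their median turned to 0.0085 without BSGX001 replicate 3 and 0.0089 without BSGX001 (thi2Δ) replicate 3. Of the 21, 5 were higher without BSGX001 replicate 1 or 2 or without BSGX001 (thi2Δ) replicate 3. Their lower count was 3 without BSGX001 replicate 3, and 2 and 1 without BSGX001 (thi2Δ) replicates 2 and 3. In the fit without chromosome I and the chromosome XII segment, 2 of 16 members with TNATTGGT were higher and 5 lower. The difference between the 17 and the 21 was not tested. *CYC1*, *NDE2*, *COX4* and *CYT1* were the 4 members without CCAAT in this window.

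The libraries held 7584920 to 12255688 counts on genes. *THI2* had 9.81, 10.9 and 13.9 CPM in BSGX001 (thi2Δ) against 22.7, 24.5 and 27.0 CPM in BSGX001, a log2 fold change of -1.10 (SE 0.14, edgeR adjusted p = 6.3e-08), so that it was lower in every BSGX001 (thi2Δ) library but was not at 0 in any of them. In BSGX001 (thi2Δ), 107 tested genes of chromosome XII from *ECM22* to *GAS2* had a median log2 fold change of 1.06 and 85 genes of chromosome I a median of 0.99, against -0.0046 over the other 5582 genes. All 3 libraries of the strain share both shifts, so the labelled deletion and these regions cannot be told apart as sources of a difference between the strains. Of 7 mitochondrially encoded subunits, 6 were in the files with at most 7 counts in any library; the libraries were made from poly(A) RNA, and none of the 6 passed the filter on low counts.

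Over all genes, edgeR's quasi-likelihood test with Benjamini-Hochberg adjustment over 5774 genes called 2964 (51.3%) at an adjusted p under 0.05. All 38 members passed the filter on low counts. In BSGX001 (thi2Δ), 9 members were higher (23.7%, against 26.1% of all genes) and 11 were lower (28.9%, against 25.2% of all genes), while 18 were not called. The 11 lower genes became 7 without BSGX001 replicate 3 and 6 without BSGX001 (thi2Δ) replicate 3. These shares lay close to those of all genes, and the median log2 fold change of the members, 0.02, was close to the 0.01 of all genes. By the values themselves, the libraries of the strains did not overlap for 10 members that were higher (29.1% of all genes) and 11 that were lower (28.7% of all genes) in BSGX001 (thi2Δ). RNA was taken from whole cultures, in which fewer cells of a kind and less RNA per cell cannot be told apart.

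The split between higher and lower depended on how the libraries were scaled. With TMM scaling, used for every value below unless stated, the median of all genes stayed near 0. With library totals alone it moved to 0.22 on the log2 scale, 22 members were then called higher and 1 lower, and 51.9% and 10.3% of all genes were called higher and lower. The median of the members was 0.24 with that scaling, which is 0.012 above that of all genes. All directions below are thus relative to the bulk of the genes, and where scaling to library totals or the deposited FPKM (fragments scaled to gene length and library total) turns one round, this is said beside it. Some members given below as not called were called higher with library totals. They were *SDH1*, *SDH3*, *SDH4*, *CYT1*, *COX5B*, *COX7*, *COX8*, *COX13*, *ATP5*, *ATP7*, *ATP17* and *ATP20* (0.23 to 0.39), and *COX9* (0.16).

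**Figure D1:**
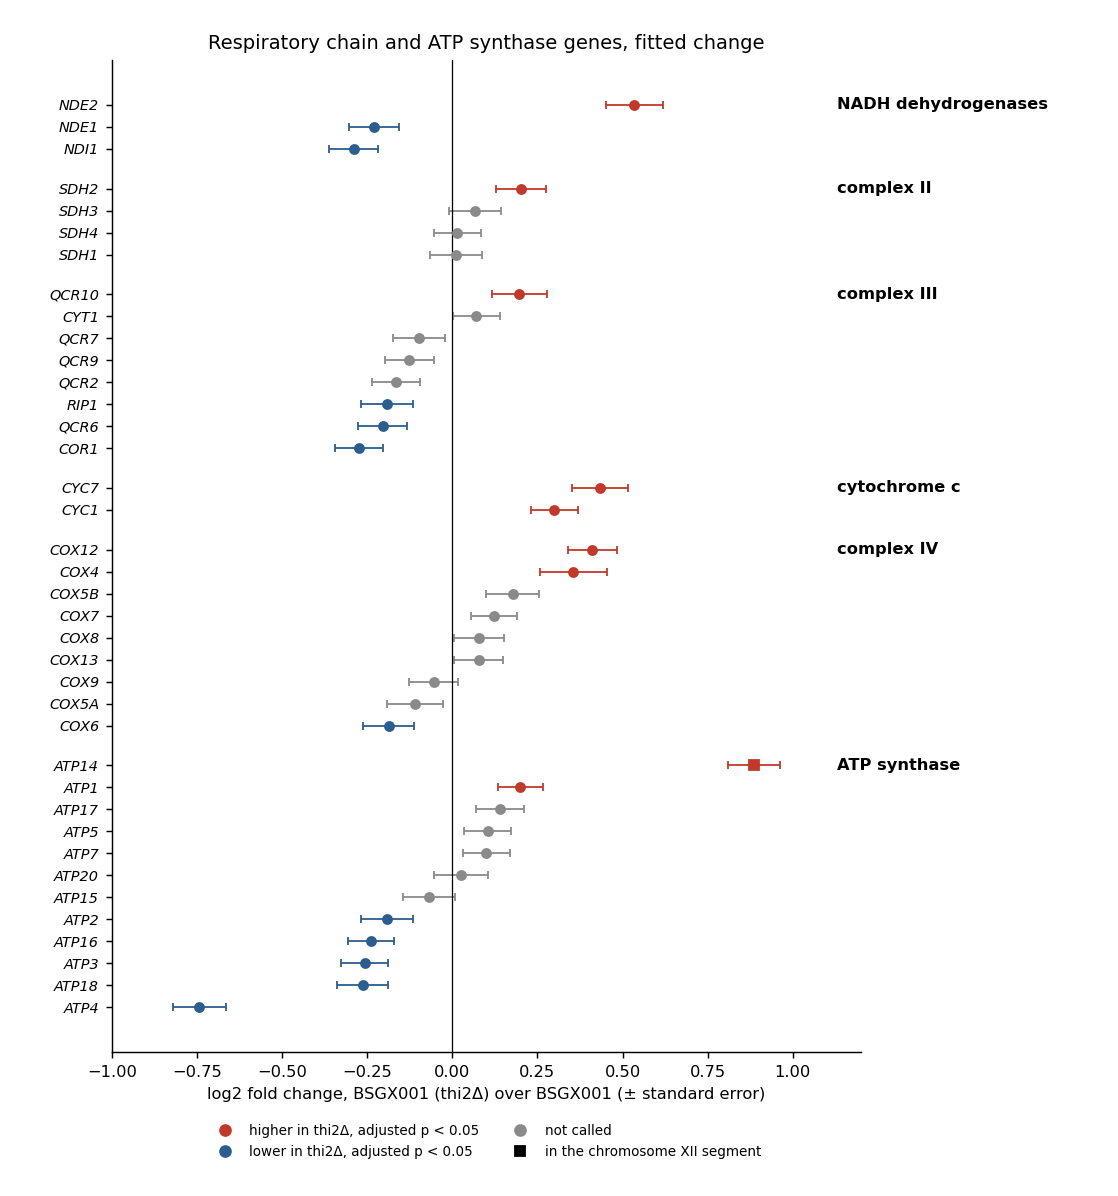
Fitted log2 fold change of each of the 38 genes, BSGX001 (thi2Δ) over BSGX001, with its standard error, grouped by complex (3 libraries per strain; square, gene in the chromosome XII segment). The changes ran from -0.74 for *ATP4* to 0.89 for *ATP14*, and genes on both sides of 0 were called in 3 of the 4 multi-subunit complexes; with library totals the zero line moves by 0.22, and 10 of the 17 genes below it then lie above it.

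The genes for the entry of electrons from NADH differed in both directions. *NDI1*, the dehydrogenase facing the mitochondrial matrix, had 758, 781 and 761 CPM in BSGX001 (thi2Δ) against 939, 863 and 1009 CPM in BSGX001 (CPM, counts scaled to the size of the library), with no overlap between the strains. Its log2 fold change was -0.29 (SE 0.07, edgeR adjusted p = 0.0013). *NDE1*, the main dehydrogenase facing the cytosolic side, was lower as well, with 703, 736 and 721 CPM in BSGX001 (thi2Δ) against 759, 857 and 917 CPM in BSGX001 and a log2 fold change of -0.23 (SE 0.07, edgeR adjusted p = 0.010). The fall of *NDE1* was not called without BSGX001 replicate 3 (-0.17, edgeR adjusted p = 0.071), and neither fall was called with library totals (-0.07 for *NDI1* and -0.01 for *NDE1*). *NDE2*, the second dehydrogenase on that side, moved the other way: 58.3, 62.8 and 65.9 CPM in BSGX001 (thi2Δ) against 41.9, 44.9 and 42.2 CPM in BSGX001. Every BSGX001 (thi2Δ) library lay above every BSGX001 library, and the log2 fold change was 0.53 (SE 0.08, edgeR adjusted p = 3.7e-06), a call kept under every alternative. In level, *NDE2* remained the lowest of all members, with 23.5 to 43.6 FPKM over the 6 libraries.

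Relative to the bulk of the genes, those of complex II, succinate dehydrogenase, differed little. *SDH2*, for the iron-sulfur subunit, had 664, 689 and 712 CPM in BSGX001 (thi2Δ) against 569, 564 and 663 CPM in BSGX001, which do not overlap, and a log2 fold change of 0.20 (SE 0.07, edgeR adjusted p = 0.021). This call was lost without BSGX001 replicate 1 (0.17, edgeR adjusted p = 0.087), BSGX001 replicate 2 (0.16, adjusted p = 0.11) or BSGX001 (thi2Δ) replicate 3 (0.18, adjusted p = 0.099). The flavoprotein gene *SDH1*, with 992, 882 and 935 CPM in BSGX001 (thi2Δ) against 878, 882 and 1029 CPM in BSGX001, overlapped almost fully between the strains and had the smallest fitted change of the complex, 0.01. The membrane anchor genes *SDH3* and *SDH4* had log2 fold changes of 0.07 and 0.01 and were not called. With library totals, *SDH1*, *SDH3* and *SDH4* were called higher, at 0.23, 0.28 and 0.23 (edgeR adjusted p = 0.0059, 0.0019 and 0.0025). The median of all genes was 0.22 with that scaling. *SDH4* was the highest of the complex in every library and *SDH3* the lowest, with 1124, 1082 and 1109.7 FPKM in BSGX001 (thi2Δ) against 923, 913 and 989 FPKM in BSGX001 for *SDH4* and 213, 227 and 242 FPKM in BSGX001 (thi2Δ) against 186, 173 and 201 FPKM in BSGX001 for *SDH3*. *SDH1* shares 76.4% of aligned coding bases with *YJL045W*, with identical runs of up to 23 bases, so some of its reads may have been shared out between them.

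In complex III, the bc1 complex, 3 of 8 genes were called lower (37.5%, against 25.2% of all genes) and 1 higher (12.5%, against 26.1%). *COR1*, for a core protein of the matrix side, had 662, 671 and 631 CPM in BSGX001 (thi2Δ) against 779, 751 and 846 CPM in BSGX001. Its strains did not overlap, and its log2 fold change was -0.27 (SE 0.07, edgeR adjusted p = 0.0017), though it was -0.06 and not called with library totals. *QCR6*, for an acidic subunit near cytochrome c1, and *RIP1*, for the Rieske iron-sulfur protein, fell by 0.20 and 0.19 on the log2 scale (edgeR adjusted p = 0.018 and 0.034), and both turn slightly positive with library totals (0.012 and 0.026). The *QCR6* call was lost without BSGX001 replicate 1 (-0.19, edgeR adjusted p = 0.0503), BSGX001 (thi2Δ) replicate 2 (-0.18, adjusted p = 0.085) or BSGX001 (thi2Δ) replicate 3 (-0.18, adjusted p = 0.094). The *RIP1* call was lost without BSGX001 replicate 3 (-0.09, edgeR adjusted p = 0.33), BSGX001 (thi2Δ) replicate 1 (-0.18, adjusted p = 0.0803) or BSGX001 (thi2Δ) replicate 3 (-0.19, adjusted p = 0.0899), and in the fit that left out both shifted regions (-0.18, adjusted p = 0.054).

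The small subunit gene *QCR10* was the one member of complex III called higher, with 370.0, 452 and 445 CPM in BSGX001 (thi2Δ) against 354, 334 and 417 CPM in BSGX001. These libraries overlap, the log2 fold change was 0.20 (SE 0.08, edgeR adjusted p = 0.045), and the call was lost with 4 of the 6 libraries left out in turn: BSGX001 replicate 1 (0.17, adjusted p = 0.15), BSGX001 replicate 2 (0.13, adjusted p = 0.25), BSGX001 (thi2Δ) replicate 2 (0.15, adjusted p = 0.17) and BSGX001 (thi2Δ) replicate 3 (0.16, adjusted p = 0.18). It was also lost with DESeq2's size factors (edgeR adjusted p = 0.052) and with DESeq2's Wald test (adjusted p = 0.074), at 0.19 in both. *QCR2*, for the other core protein, had 582, 627 and 608 CPM in BSGX001 (thi2Δ) against 638, 673 and 726 CPM in BSGX001, which do not overlap, yet its log2 fold change of -0.16 missed the threshold (edgeR adjusted p = 0.0501) and was 0.05 with library totals. *QCR2* was called lower with DESeq2's size factors (edgeR adjusted p = 0.045) and with at least 10 counts in every library (adjusted p = 0.0498). The same held without BSGX001 replicate 1 (-0.21, edgeR adjusted p = 0.027) and by DESeq2's Wald test (adjusted p = 0.026). *QCR7* and *QCR9*, small subunits, had -0.10 and -0.13, which turn to 0.12 and 0.09 with library totals, and *CYT1*, for cytochrome c1, had 0.07. In FPKM, *QCR9* was the highest of the complex with 3013, 3237 and 3262 FPKM in BSGX001 (thi2Δ) against 3085, 2693 and 3151 FPKM in BSGX001, and *CYT1* the lowest with 399, 412 and 437 FPKM in BSGX001 (thi2Δ) against 338, 322 and 362 FPKM in BSGX001.

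Both cytochrome c genes rose. *CYC1*, for iso-1, the main form in air, had 181, 179 and 185 CPM in BSGX001 (thi2Δ) against 142, 153 and 148 CPM in BSGX001, with narrow groups that do not overlap and a log2 fold change of 0.30 (SE 0.07, edgeR adjusted p = 5.0e-04). *CYC7*, for iso-2, known as the form favoured under low oxygen, had 153, 158 and 161 CPM in BSGX001 (thi2Δ) against 137, 104 and 107 CPM in BSGX001. Replicate 1 of BSGX001 stood above the other two of its strain, the groups still did not overlap, and the log2 fold change was 0.43 (SE 0.08, edgeR adjusted p = 6.1e-05). Without that library it was 0.58. Both calls were kept under every alternative.

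**Figure D2:**
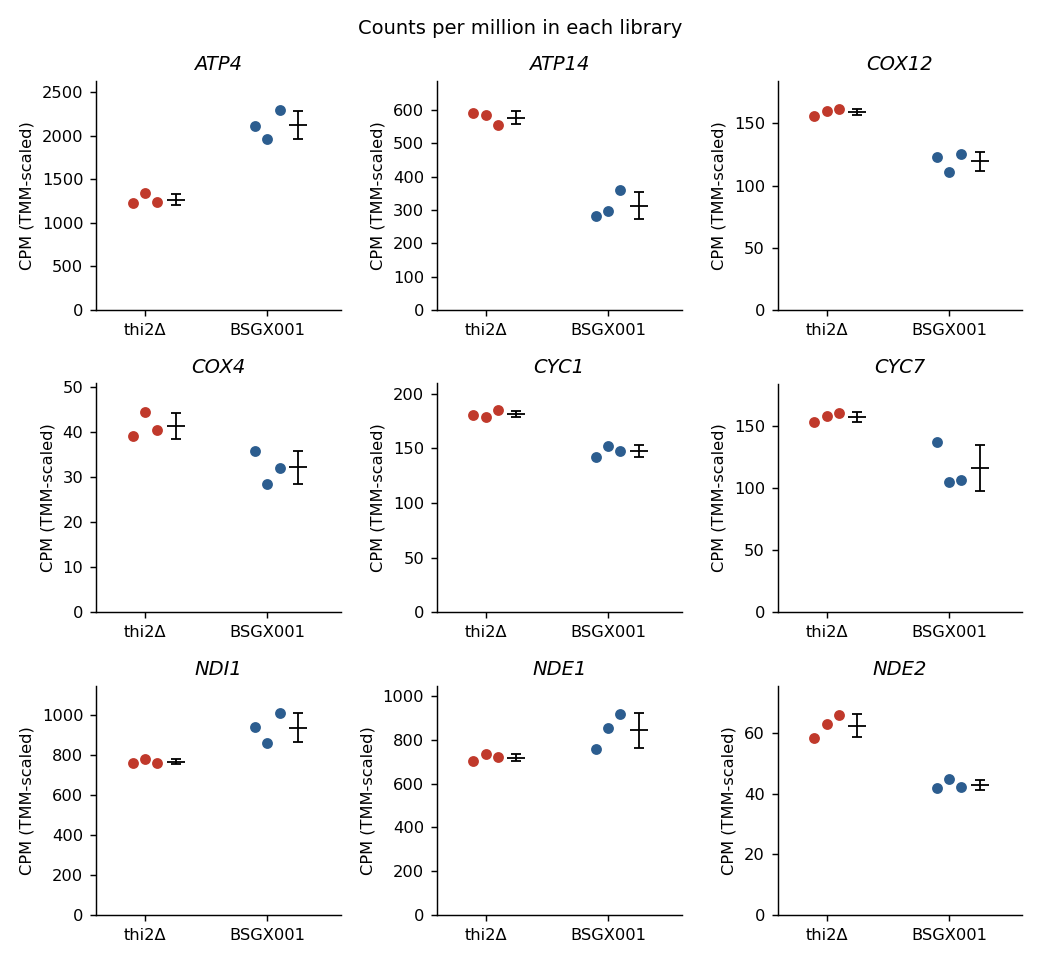
TMM-scaled CPM (axes from 0) of 9 members in each library, BSGX001 (thi2Δ) left and BSGX001 right (points, 3 libraries each; bars, mean ± SD). The strains do not overlap for any of the 9 genes; *ATP4*, *NDI1* and *NDE1* are lower and the other 6 are higher in BSGX001 (thi2Δ), and with library totals only *ATP4* of the lower ones is called.

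Of the 9 genes of complex IV, cytochrome c oxidase, 2 were called higher (22.2%, against 26.1% of all genes) and 1 lower (11.1%, against 25.2%). *COX12*, for a subunit on the intermembrane space side, had 156, 159.8 and 161 CPM in BSGX001 (thi2Δ) against 123, 111 and 125 CPM in BSGX001, which do not overlap. It rose by 0.41 on the log2 scale (SE 0.07, edgeR adjusted p = 1.7e-05) and was called under every alternative. *COX6*, for another nuclear subunit, had 217, 253 and 230.4 CPM in BSGX001 (thi2Δ) against 259, 242 and 295 CPM in BSGX001, with 1 BSGX001 (thi2Δ) library inside the BSGX001 range. Its log2 fold change was -0.19 (SE 0.08, edgeR adjusted p = 0.037), which turns to 0.03 with library totals and was not called without BSGX001 replicate 3 (-0.10, adjusted p = 0.29), BSGX001 (thi2Δ) replicate 1 (-0.14, adjusted p = 0.16) or BSGX001 (thi2Δ) replicate 3 (-0.18, adjusted p = 0.1002). It was not called either by DESeq2's Wald test (-0.19, adjusted p = 0.051) or in the fit without the shifted regions of chromosomes I and XII (-0.17, edgeR adjusted p = 0.059). *COX7*, *COX8* and *COX13*, all small subunits, had 0.12, 0.08 and 0.08 and were not called, and *COX9* had -0.05, or 0.16 with library totals.

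*COX4*, for a zinc-binding subunit needed for the assembly of the enzyme, is listed as deleted in both strains and yet was counted in every library. It had 510, 368 and 411 in BSGX001 (thi2Δ) against 340, 236 and 222 in BSGX001 by raw count, and 39.1, 44.5 and 40.5 CPM in BSGX001 (thi2Δ) against 35.8, 28.5 and 32.1 CPM in BSGX001, which do not overlap. The log2 fold change was 0.36 (SE 0.10, edgeR adjusted p = 0.0032), a call kept under every alternative. In FPKM it had 88.9, 103 and 93.9 FPKM in BSGX001 (thi2Δ) against 72.1, 56.6 and 62.5 FPKM in BSGX001, or 5.59% to 7.86% of the median of the other 8 complex IV genes in the same library, and it was the lowest of the 9 in every library. From 54.7% to 67.5% of all genes lay below it. These gene totals do not say which part of the reading frame the reads came from, and how much of *COX4* the strains keep was not tested.

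Across all 38 members the level per length spanned a wide range within a single complex. The highest were *ATP15* (3631 to 4579 FPKM over the 6 libraries), *QCR9* (2693 to 3262 FPKM) and *COX5A* (2438 to 3051 FPKM), and the lowest were *NDE2* (23.5 to 43.6 FPKM), *COX4* (56.6 to 103 FPKM) and *COX5B* (118 to 174 FPKM). In the order of mean FPKM, the range over libraries of *ATP15* lay clear of that of *QCR9* next to it, as did *COX4* of *COX5B* and *NDE2* of *COX4*, while most other neighbours overlapped. Members at a higher level tended to have a lower log2 fold change (Spearman's rho = -0.34 over 38 genes), and all 5774 genes showed much the same (-0.32). These points share their 6 libraries, and the values are a description only.

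For 3 pairs of isoforms the ratio within a library does not depend on how libraries are scaled. *NDE2* reached 8.53%, 8.77% and 9.40% of *NDE1* in FPKM in BSGX001 (thi2Δ), against 5.66%, 5.38% and 4.73% in BSGX001, a log2 difference of 0.76. *COX5B*, the low-oxygen form of subunit V, stood at 5.68%, 5.38% and 5.98% of the aerobic form *COX5A* in BSGX001 (thi2Δ) and at 5.17%, 4.84% and 4.10% in BSGX001, a log2 difference of 0.28. Neither of these ratios overlapped between the strains. *CYC7* over *CYC1* was 81.6%, 85.2% and 83.8% in BSGX001 (thi2Δ) and 92.9%, 66.1% and 69.5% in BSGX001, and here the single high BSGX001 library took the groups into overlap. Exact permutation tests (two-sided) gave p = 0.1 for *NDE2* over *NDE1* and for *COX5B* over *COX5A*, the smallest that 3 libraries against 3 allow, and p = 0.4 for *CYC7* over *CYC1* (Benjamini-Hochberg adjusted over 3 ratios, 0.15, 0.15 and 0.4), so that none could pass 0.05. The single genes of the *COX5* pair were not called: *COX5A* had 1212, 1248 and 1242 CPM in BSGX001 (thi2Δ) against 1237, 1213 and 1545 CPM in BSGX001 (log2 fold change -0.11, edgeR adjusted p = 0.27, or 0.11 with library totals), and *COX5B* had 67.9, 66.3 and 73.3 CPM in BSGX001 (thi2Δ) against 63.2, 57.9 and 62.6 CPM in BSGX001 (log2 fold change 0.18, edgeR adjusted p = 0.062). The *COX5B* libraries did not overlap between the strains. *COX5B* was called higher in the fit without the shifted regions (0.19, edgeR adjusted p = 0.044) and with library totals (0.39, adjusted p = 1.6e-04). The coding sequences of the pairs are 66.1% (*NDE1* and *NDE2*), 69.3% (*COX5A* and *COX5B*) and 78.1% (*CYC1* and *CYC7*) identical over aligned bases, with identical runs of up to 11, 12 and 35 bases, and how reads from such runs were assigned is not known, which leaves the values of the cytochrome c pair the least certain of the 3.

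**Figure D3:**
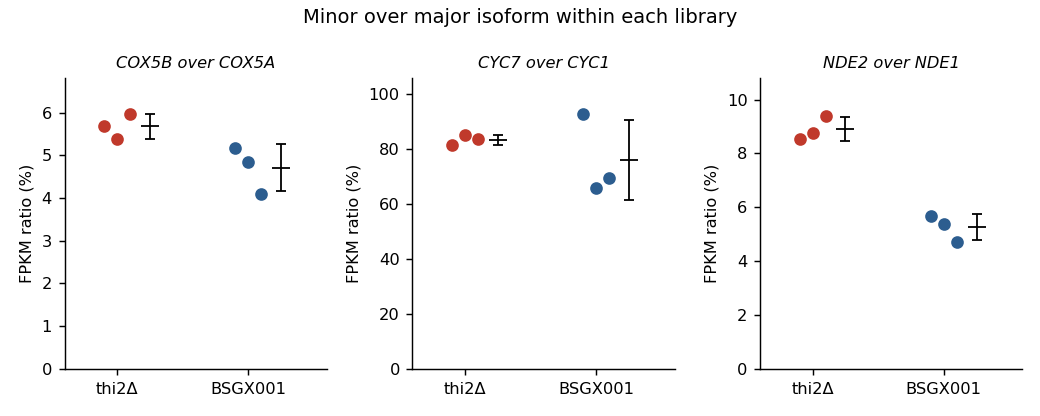
FPKM of the second isoform as a percentage of the first within each library (axes from 0), BSGX001 (thi2Δ) left and BSGX001 right (points, 3 libraries each; bars, mean ± SD). The ratio of *NDE2* to *NDE1* was 8.90% ± 0.45 in BSGX001 (thi2Δ) against 5.26% ± 0.48 in BSGX001, and that of *CYC7* to *CYC1* overlapped between the strains.

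ATP synthase held the largest changes of all, in opposite directions and within the same part of the enzyme, the peripheral stalk that keeps the catalytic head from turning. *ATP4*, for stalk subunit b, had 1227, 1340.2 and 1241 CPM in BSGX001 (thi2Δ) against 2118, 1963 and 2295 CPM in BSGX001. The strains were far apart, and BSGX001 (thi2Δ) was at 0.597 of the BSGX001 level (log2 fold change -0.74, SE 0.08, edgeR adjusted p = 2.1e-09), the one fall that was called with library totals as well. *ATP14*, for stalk subunit h, had 592, 584 and 554 CPM in BSGX001 (thi2Δ) against 283, 296 and 359 CPM in BSGX001, again with no overlap, and a log2 fold change of 0.89 (SE 0.08, edgeR adjusted p = 4.0e-11). *ATP14* lies on chromosome XII at 721999 to 722373 of build R64, on the reverse strand, inside the segment from *ECM22* to *GAS2* (600019 to 817761) whose 107 tested genes had a median log2 fold change of 1.06. It was the only member in either shifted region, and 8 of the remaining 37 members were called higher. The other stalk genes, *ATP5* and *ATP7*, had 0.10 and 0.10 and were not called.

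Both genes of the catalytic head were called, on opposite sides of 0. *ATP1*, for the alpha subunit, had 384, 384 and 388 CPM in BSGX001 (thi2Δ) against 329.9, 332 and 345 CPM in BSGX001, close values within each strain and no overlap, and rose by 0.20 on the log2 scale (SE 0.07, edgeR adjusted p = 0.011). *ATP2*, for the beta subunit that carries the catalytic sites, had 1204, 1164 and 1148 CPM in BSGX001 (thi2Δ) against 1227, 1332 and 1456 CPM in BSGX001, which do not overlap either, with a log2 fold change of -0.19 (SE 0.08, edgeR adjusted p = 0.034) that turns to 0.03 with library totals. Its call was lost without BSGX001 replicate 2 (-0.20, adjusted p = 0.053), BSGX001 replicate 3 (-0.13, adjusted p = 0.17), BSGX001 (thi2Δ) replicate 2 (-0.19, adjusted p = 0.0897) or BSGX001 (thi2Δ) replicate 3 (-0.18, adjusted p = 0.12), and in the fit without the shifted regions (-0.18, adjusted p = 0.052).

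In the rotating central stalk none of the 3 genes was higher. *ATP3* (gamma subunit) and *ATP16* (delta subunit) fell by 0.26 and 0.24 on the log2 scale (edgeR adjusted p = 0.0028 and 0.0042), calls that held with any 1 library left out but not with library totals (-0.04 and -0.02). *ATP15*, for the epsilon subunit, had 813, 763 and 663 CPM in BSGX001 (thi2Δ) against 789, 739 and 822 CPM in BSGX001, which overlap, and a log2 fold change of -0.07, or 0.15 with library totals. Among the subunits of the membrane part, *ATP18* fell by 0.26 (edgeR adjusted p = 0.0037), a call lost without BSGX001 (thi2Δ) replicate 3 (-0.19, adjusted p = 0.061) and with library totals (-0.05), while *ATP17* and *ATP20* had 0.14 and 0.03 and were not called. In FPKM, *ATP15* was the highest of the 12 with 4579, 4381 and 3803 FPKM in BSGX001 (thi2Δ) against 3931, 3631 and 3967 FPKM in BSGX001, and *ATP1* the lowest by its mean with 249.6, 254 and 257 FPKM in BSGX001 (thi2Δ) against 189.6, 188 and 192 FPKM in BSGX001. Subunits of one enzyme thus differed widely in RNA level per length, alpha (*ATP1*) being at 188 to 257 FPKM and beta (*ATP2*) at 752 to 865 FPKM over the 6 libraries.

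Of the 20 calls among the members, 8 held under every alternative tried: the rises of *NDE2*, *CYC1*, *CYC7*, *COX4*, *COX12*, *ATP1* and *ATP14* and the fall of *ATP4*, where *ATP14* has no value in the fit without the shifted regions. A further 4 falls, of *NDI1*, *COR1*, *ATP3* and *ATP16*, held under every alternative not scaled to library totals.

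The other genes of the pathway were read from 9 further lists, with 107 tested genes. Of these, 38 were higher (35.5%, against 26.1% of all genes) and 17 lower (15.9%, against 25.2% of all genes) in BSGX001 (thi2Δ), and their median log2 fold change was 0.07. Leaving out each library in turn gave 26 to 39 higher and 14 to 19 lower. The 26 came without BSGX001 replicate 2, where 23.1% of all genes were higher. By DESeq2's Wald test 30 of the 107 were higher, where 22.7% of all genes were. With library totals 63 were higher and 7 lower, with a median of 0.28, against 51.9% and 10.3% of all genes. The most one-sided list held the assembly factors of complex III and the cytochrome heme lyases, with 10 of 12 genes higher, 1 lower and a median of 0.36. The count higher fell to 6 without BSGX001 replicate 2, without BSGX001 (thi2Δ) replicate 2 or by DESeq2's Wald test. It was 7 without BSGX001 replicate 3 or BSGX001 (thi2Δ) replicate 3, while the median stayed at 0.30 to 0.37 with any 1 library left out. *CYC3*, for the lyase that attaches heme to cytochrome c, had the largest rise of that list (819.9 ± 28.2 CPM in BSGX001 (thi2Δ) against 389 ± 7.82 CPM in BSGX001, SD, n = 3 each, log2 fold change 1.08) and lies on chromosome I. Without it, 9 of 11 were higher and the median was 0.36. The 1 lower gene of the list, *CBP3*, which acts on the translation and assembly of cytochrome b, had -0.21, or 0.010 with library totals, and lost its call without BSGX001 replicate 2, BSGX001 replicate 3 or BSGX001 (thi2Δ) replicate 3 (highest edgeR adjusted p = 0.14).

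Among 35 assembly genes of complex IV, 14 were higher (40.0%, against 26.1% of all genes) and 4 lower (11.4%, against 25.2%). The median was 0.12, and 8 of the 35 were higher without BSGX001 replicate 2 or without BSGX001 replicate 3. In those 2 fits, 23.1% and 21.4% of all genes were higher. With library totals, 25 were higher and 1 was lower, where 51.9% and 10.3% of all genes were higher and lower. *PET54*, needed for the translation of mitochondrial *COX3* RNA, had the largest rise (16.8 ± 0.786 CPM in BSGX001 (thi2Δ) against 9.03 ± 1.28 CPM in BSGX001, SD, n = 3 each, log2 fold change 0.88), and *COX19*, a copper-handling assembly factor, the largest fall (70.3 ± 8.21 CPM in BSGX001 (thi2Δ) against 95.7 ± 10.2 CPM in BSGX001, SD, n = 3 each, log2 fold change -0.43). The other 3 lower genes were *COX15* (-0.31), for heme A synthesis, *COA3* (-0.24) and *PET494* (-0.22), and none of these 3 was called with library totals (-0.09, -0.02 and -0.0032). The *COA3* and *PET494* calls were also lost without BSGX001 replicate 3 (edgeR adjusted p = 0.085 and 0.052) or BSGX001 (thi2Δ) replicate 2 (adjusted p = 0.12 and 0.064). For ATP synthase assembly, 2 of 14 were higher (14.3%, against 26.1% of all genes) and 4 lower (28.6%, against 25.2%). The median of this list was -0.08. With library totals 4 were higher, 1 was lower and the median was 0.14, against a median of 0.22 over all genes. *AEP3*, which acts on the mitochondrial RNA of *ATP6* and *ATP8*, had the largest fall of all the lists (97.0, 91.0 and 79.7 CPM in BSGX001 (thi2Δ) against 189.9, 128 and 144 CPM in BSGX001, log2 fold change -0.79), with replicate 1 of BSGX001 above the other two of its strain. *INA22* (-0.33), *ATP11* (-0.29) and *ATP23* (-0.26) were lower too, though not called with library totals (-0.12, -0.08 and -0.04), and *ATP23* lost its call without BSGX001 replicate 2, BSGX001 (thi2Δ) replicate 2 or BSGX001 (thi2Δ) replicate 3 as well (highest edgeR adjusted p = 0.058). *NCA2* (0.41) and *NCA3* (0.32), both known to act on that mitochondrial RNA, were higher. In complex II, 2 of 7 assembly genes and paralogs were higher, *SDH6* (0.49) and *SDH7* (0.47), and 2 lower, *SDH8* (-0.51) and the *SDH3* paralog *SHH3* (-0.47, or -0.26 and not called with library totals). Of 8 other nuclear subunits and ATPase regulators, 2 were higher, *COX26* (0.55), a small subunit of complex IV, and *STF1* (0.19), an ATPase inhibitor, and 1 was lower, *STF2* (-0.54), known for an effect on the ATPase inhibitor and on survival of drying. The *STF1* call was lost without BSGX001 replicate 2 (0.13, edgeR adjusted p = 0.16), BSGX001 (thi2Δ) replicate 2 (0.14, adjusted p = 0.14) or BSGX001 (thi2Δ) replicate 3 (0.18, adjusted p = 0.074).

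The lists of ubiquinone synthesis, other electron donors and carriers had medians of 0.01 to 0.06, or 0.22 to 0.28 with library totals. Over all genes these medians were 0.01 and 0.22, and with TMM 26.1% were higher and 25.2% lower. Of 11 genes of ubiquinone synthesis, 2 were higher, *COQ8* (0.41) and *COQ11* (1.10), and none was lower, and *COQ11* lies in the chromosome XII segment. Of 6 genes listed as other electron donors, 2 were higher, *URA1* (0.50), whose enzyme in this yeast is cytosolic and reduces fumarate rather than ubiquinone, and *DLD2* (0.25), for a D-lactate or D-2-hydroxyglutarate dehydrogenase. Among 7 carriers and porins, 3 were higher, *PIC2* (0.63), for a phosphate and copper carrier, and the ADP/ATP carriers *AAC1* (0.59) and *PET9* (0.20). The 2 lower genes were *POR1* (-0.46), for the main outer membrane porin, and *MIR1* (-0.32), for the main phosphate carrier, which was at -0.10 and not called with library totals. The *PET9* call was lost without BSGX001 replicate 1 (0.12, edgeR adjusted p = 0.20), BSGX001 replicate 2 (0.19, adjusted p = 0.082), BSGX001 (thi2Δ) replicate 2 (0.16, adjusted p = 0.11) or BSGX001 (thi2Δ) replicate 3 (0.21, adjusted p = 0.052).

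The 7 regulators known to act on these genes had a median log2 fold change of -0.13, against 0.01 over all genes. With library totals it was 0.083, against 0.22 over all genes, so that it lay below that of all genes with both scalings. *HAP4*, for the activating subunit of the HAP complex, had 691, 644 and 613 CPM in BSGX001 (thi2Δ) against 912, 849 and 963 CPM in BSGX001. It did not overlap between the strains and was lower in BSGX001 (thi2Δ), with a log2 fold change of -0.48 (SE 0.07, edgeR adjusted p = 1.8e-06). *HAP1*, for a heme-responsive activator, had 357, 321 and 338 CPM in BSGX001 (thi2Δ) against 191, 207 and 211 CPM in BSGX001, a log2 fold change of 0.74 (SE 0.07, edgeR adjusted p = 1.7e-10), and lies in the chromosome XII segment. Of the 6 regulators outside the shifted regions, 3 were lower (50.0%, against 25.2% of all genes) and none was higher (against 26.1%). The 3 were *HAP4*, *HAP3* (-0.39), for a DNA-binding subunit of the same complex, and *ROX1* (-0.19, or 0.022 with library totals), for a repressor of low-oxygen genes. The *ROX1* call was lost without BSGX001 replicate 1 (-0.16, edgeR adjusted p = 0.087) or BSGX001 (thi2Δ) replicate 3 (-0.19, adjusted p = 0.065), and that of *HAP3* by limma on the FPKM (-0.18, adjusted p = 0.051). Beside these, 11 members of the chain were lower and 9 higher, and any part of the regulators in those changes was not tested.

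**Figure D4:**
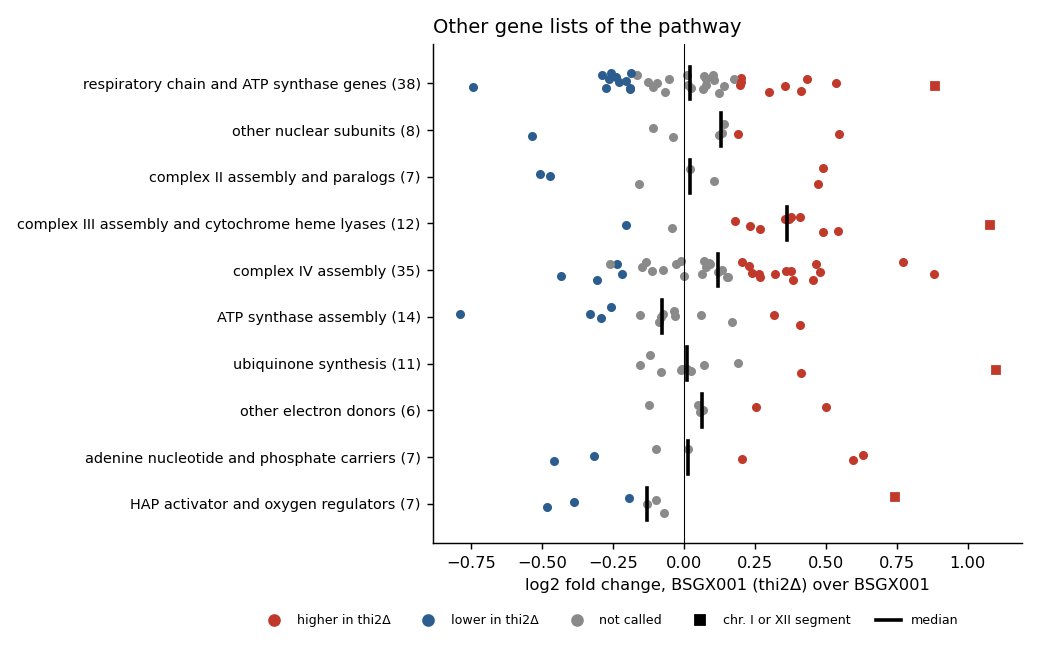
Fitted log2 fold change, BSGX001 (thi2Δ) over BSGX001, of each gene in 10 lists of the pathway (number tested in brackets; bar, median; square, gene on chromosome I or in the chromosome XII segment; 3 libraries per strain). The 38 members are spread on both sides of 0 with a median of 0.02, while 10 of the 12 genes for complex III assembly and heme lyases are called higher (6 by DESeq2's Wald test).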

How the data were processed

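Poly(A) RNA of 6 libraries was sequenced, 3 of BSGX001 (thi2Δ) and 3 of BSGX001, grouped by the strain in GEO's labels. The authors deposited, for each library, estimated counts per gene (all whole numbers) and FPKM values (fragments scaled by the authors to gene length and library total). The submitters' processing notes name build R64 and DESeq. The aligner, the counter and its strand setting are not given in the sources used here. The tables of the whole series held 12 columns of library values, all equal to the files of the libraries, which were not used, and the authors' own comparison columns (fold changes, p-values and adjusted p-values) were not used either.

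Of 5925 gene IDs, 5923 matched the R64 annotation. Counts were tested with edgeR 4.0.16 in R 4.3.3 (quasi-likelihood, robust, TMM scaling, default filter on low counts, which left 5774 genes), with no covariate and Benjamini-Hochberg adjustment. An adjusted p under 0.05 was a call. CPM are TMM-scaled, and every log2 fold change is BSGX001 (thi2Δ) over BSGX001. Alternatives were other scalings and filters, a replicate block, fits that each lacked 1 library, limma 3.58.1 on log2(FPKM + 1) and log2(FPKM + 0.1), DESeq2 1.42.0, and a fit without chromosome I and the chromosome XII segment. The tests were first run on simulated data.

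The members and lists were chosen with earlier results of these data known, and the sequence search after the values were seen. Values in every library are given for the largest rise and fall of each complex, the isoform pairs, *COX4*, the member in the shifted region, and the highest and lowest gene of each complex by FPKM, and, of each further list, the largest called rise and fall are named. Values of *QCR2* and *ATP2* and the other called genes of lists with 5 or fewer calls in a direction were added after they were seen. Totals were 7584920 to 12255688 counts per library, and no member had under 222 counts. No member overlaps another gene of the annotation. No pair of libraries agreed within sampling noise (chi-square per degree of freedom at least 4.05).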

Additional observations from a re-analysis of the deposited data

How the results depend on the processing

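Scaling was the choice that changed most. With library totals, 22 members were higher, 1 was lower and their median was 0.24, and with limma on log2(FPKM + 1) and on log2(FPKM + 0.1) 21 were higher, 1 was lower and the median was 0.24 in both. Under these 3 alternatives, in that order, 12 of the genes named above turned from negative to positive: *QCR2* (0.053, 0.053 and 0.053), *QCR6* (0.012, 0.011 and 0.011), *QCR7* (0.12, 0.12 and 0.12), *QCR9* (0.091, 0.094 and 0.094), *RIP1* (0.026, 0.031 and 0.031), *COX5A* (0.11, 0.12 and 0.12), *COX6* (0.031, 0.033 and 0.033), *COX9* (0.16, 0.17 and 0.17), *ATP2* (0.026, 0.028 and 0.028), *ATP15* (0.15, 0.14 and 0.14), *CBP3* (0.010, 0.011 and 0.012) and *ROX1* (0.022, 0.025 and 0.026). With library totals, the medians of the ATP synthase assembly list and of the regulators turned from -0.08 and -0.13 to 0.14 and 0.083, and over all of the members and the 107 further genes 10 and 29 turned positive and none negative. The median of all genes was 0.22 under each of these scalings. Leaving out each library in turn gave 7 to 10 members higher and 6 to 11 lower (7 without BSGX001 replicate 3 and 6 without BSGX001 (thi2Δ) replicate 3), a median of -0.0033 to 0.077 and 2484 to 2833 genes called in all. The sign changed among these fits for genes that were not called: *SDH1* (-0.033 to 0.090), *SDH4* (-0.012 to 0.065), *QCR7* (-0.15 to 0.0085), *COX5A* (-0.17 to 0.012), *ATP15* (-0.14 to 0.0089) and *ATP20* (-0.029 to 0.10). *QCR9*, not called with all libraries, was called lower without BSGX001 replicate 2 (-0.20, edgeR adjusted p = 0.035). *ATP17*, also not called with all libraries, was called higher without BSGX001 replicate 3 (0.20, edgeR adjusted p = 0.035). The ratio of *NDE2* to *NDE1* stayed at 0.69 to 0.82 and that of *COX5B* to *COX5A* at 0.18 to 0.35 on the log2 scale. The replicate numbers do not pair the libraries (correlations of the deviations of same-numbered libraries 0.052, -0.072 and -0.027), and with the replicate block 9 members were higher, 11 were lower and 3020 genes were called, with a smallest possible exact p of 0.25 for the ratios. DESeq2's size factors gave 8 higher and 12 lower, DESeq2's Wald test 8 and 11, no filter 9 and 11, at least 10 counts in every library 9 and 12, and the fit without the shifted regions 9 and 8 of 37. With 3 libraries per strain and a common biological coefficient of variation of 0.063, changes near 0.2 on the log2 scale lie at the edge of what was called, and 8 of the 20 calls were lost without at least 1 library.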
